A study of Homo sapiens with 9 samples.

Results

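The cyclin-dependent kinase (CDK) inhibitors are the small proteins that hold back the kinases driving the cell cycle. Their transcripts were followed in OVISE cells, an established clear cell ovarian carcinoma line whose own ARID1A is mutated. The members were all array probes whose annotated gene was CDKN1A, CDKN1B, CDKN1C, CDKN2A, CDKN2B, CDKN2C, CDKN2D or CDKN3. That gave 14 of the array's 47323 probes, for 7 of the 20046 genes it names; no probe was annotated to CDKN2C, so that gene was not analysed here. Of the 14 probes, 10 had a detection p below 0.05 on every array, at least 1 for each of the 7 genes, and were tested. The other 4 were not above background on any of the 9 arrays.

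The cells grew in 3 dimensions in Matrigel, a basement membrane gel. In 3 samples, here called ARID1A, 1 µg/mL doxycycline switched on wild-type ARID1A, the SWI/SNF chromatin remodelling subunit whose gene is mutated in this line. Another 3 received 5 µM GSK126, which blocks EZH2, the enzyme that methylates histone H3 at lysine 27, and 3 received the vehicle DMSO. Replicates 1, 2 and 3 of each group belong to labelled batches 1, 2 and 3. Doxycycline was given to the ARID1A samples alone, so its own effect and that of ARID1A cannot be told apart. The labels name neither the promoter of the construct nor whether the cells are 1 clone. They also do not say whether the DMSO and GSK126 cells carry the construct.

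Since no label states that the 3 replicates of a group were grown separately, p-values here reflect array-to-array spread that may be technical. Values are normalised log2 intensities, a difference of 1 being a doubling. Levels of different probes are not read as relative amounts of their transcripts. A probe was called at an adjusted p below 0.05, from a limma model of all 9 arrays with Benjamini-Hochberg adjustment over the 23014 probes above background. Intervals of differences are 95% intervals from that model, with 3 arrays a group. Both ARID1A and GSK126 were set against the same 3 DMSO arrays. In bulk RNA, fewer cells with a transcript and less of it per cell cannot be told apart.

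Across the arrays, 21317 to 22517 probes were detected. One ARID1A probe, ILMN_1734496, was detected on 3 of 3 ARID1A arrays and on 0 of 3 GSK126 and 0 of 3 DMSO arrays, with a mean of 8.67 ± 0.38 in ARID1A cells (SD, n = 3) and at least 3.74-fold above DMSO (limma adjusted p = 0.000319). The second ARID1A probe averaged 10.94 in ARID1A cells and 11.07 in DMSO cells (limma adjusted p = 0.507). All 4 clear cell markers with a probe and 4 of 5 epithelial markers were detected on all 9 arrays, the exception being KRT18, on 0. Of the leukocyte, fibroblast and endothelial markers, CD14 was detected on 8 arrays, VWF on 3, DCN on 2 and COL1A1 on 1, and PTPRC, CD3E, COL3A1, LUM, PECAM1 and CDH5 were detected on none.

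CDK inhibitors form 2 families and 1 outlier. The Cip/Kip proteins p21 (CDKN1A), p27 (CDKN1B) and p57 (CDKN1C) bind cyclin-CDK complexes, above all those of CDK2. The INK4 proteins p16 and its relatives (CDKN2A, CDKN2B, CDKN2C, CDKN2D) bind CDK4 and CDK6 and so keep the retinoblastoma protein active as a brake on E2F transcription factors. CDKN3 is a phosphatase that removes the activating phosphate of CDKs. In many tissues the CDKN2A-CDKN2B locus and CDKN1C are silenced by the Polycomb repressive complex whose enzyme is EZH2, and SWI/SNF is known to oppose Polycomb at such genes.

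The stretches just before the transcription starts of 4 members whose values are set out below are printed to show how unlike these control regions are in sequence. Each is the 250 bases upstream of a start site of RefSeq, assembly GRCh38.p14, 5′ to 3′ on the gene's strand. Capitals mark 3 motifs on either strand. These are the GC box GGGCGG, a site of the factor SP1, the CCAAT box, spelled as its name, and the CHR element, which reads TTTGAA or else TTTAAA. CDKN1A lies on the plus strand at chr6:36678464-36678713, CDKN1B on the plus strand at chr12:12717118-12717367, and CDKN2B on the minus strand at chr9:22009306-22009555. CDKN2A has 2 windows, both on the minus strand. The one at chr9:21995325-21995574 precedes the start farther upstream, used by the ARF transcript, and the one at chr9:21974858-21975107 precedes the start used by p16.
CDKN1A: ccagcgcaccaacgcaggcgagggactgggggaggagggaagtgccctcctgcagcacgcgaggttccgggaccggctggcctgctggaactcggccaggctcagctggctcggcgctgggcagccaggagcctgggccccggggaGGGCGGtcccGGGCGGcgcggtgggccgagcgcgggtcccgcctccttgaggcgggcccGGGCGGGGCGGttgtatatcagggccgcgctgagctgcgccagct
CDKN1B: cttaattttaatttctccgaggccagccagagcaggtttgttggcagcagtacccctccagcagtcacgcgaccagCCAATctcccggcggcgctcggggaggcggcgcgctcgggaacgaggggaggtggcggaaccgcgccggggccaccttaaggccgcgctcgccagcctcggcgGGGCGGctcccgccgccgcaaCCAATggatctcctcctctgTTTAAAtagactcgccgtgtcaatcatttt
CDKN2A upstream start: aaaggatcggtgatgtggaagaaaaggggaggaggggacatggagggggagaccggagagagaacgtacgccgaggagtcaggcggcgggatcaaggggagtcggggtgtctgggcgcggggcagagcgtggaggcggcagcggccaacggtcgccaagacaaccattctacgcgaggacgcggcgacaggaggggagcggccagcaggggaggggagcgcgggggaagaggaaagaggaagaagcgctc
CDKN2A downstream start: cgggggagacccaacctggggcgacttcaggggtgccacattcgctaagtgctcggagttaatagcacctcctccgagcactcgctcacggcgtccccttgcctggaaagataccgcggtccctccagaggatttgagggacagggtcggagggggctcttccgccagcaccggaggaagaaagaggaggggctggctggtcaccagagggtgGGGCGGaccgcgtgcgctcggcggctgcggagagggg
CDKN2B: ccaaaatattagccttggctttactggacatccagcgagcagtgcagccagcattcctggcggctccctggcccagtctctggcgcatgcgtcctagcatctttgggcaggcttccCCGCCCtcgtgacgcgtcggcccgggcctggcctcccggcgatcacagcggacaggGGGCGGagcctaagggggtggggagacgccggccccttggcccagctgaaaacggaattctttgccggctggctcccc

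The CDKN1A window held 4 GC boxes, at 104, 94, 45 and 40 bases before the start, the last pair overlapping each other. The CDKN2B window held 2 and those of CDKN1B and the p16 start of CDKN2A 1 each, while the ARF-side window of CDKN2A held none of the motifs searched. CDKN1B also held 2 CCAAT boxes and 1 CHR element, the pair of elements common in cell cycle promoters. Over all 7 windows found for 6 of the genes (CDKN2D and CDKN3 included), 5 held a GC box, 3 a CCAAT box and 2 a CHR element. Of 35116 RefSeq promoter windows of that length, 42.6% held a GC box, 32% a CCAAT box and 21.9% a CHR element. None of the 7 held a TATA box (TATAAA, 10.7% of all windows), an E box (CACGTG, 6.34%), a FOXO site (GTAAACA, 2.98%) or an E2F site (TTTCGCGC, TTTCCCGC, TTTGGCGC or TTTGGCGG, 2.83%). A match of letters is a description, not a bound site.

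With ARID1A induced, none of the 10 CDK inhibitor probes passed the limma test against DMSO, while 332 of all 23014 probes did (1.44%). The largest difference was that of CDKN1A, 1.42-fold higher in ARID1A cells on the linear scale, and it passed the test when batch entered the model as a block. Over the 10 probes, 5 differences were positive and 5 negative, with a median of 0.01 against −0.01 over all probes tested. Unadjusted p was below 0.05 for 1 of 10 (16.5% of all probes), and groups did not overlap for 2 of 10 (22.6% of all probes), shares that are not above the background. With the block, 1 member was called, against 2.72% of all probes, and unadjusted p was below 0.05 for 4 of 10 (20.6% of all probes).

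CDKN1A, the gene of the inhibitor p21, was read by probe ILMN_1784602. It had 15.41, 15.68 and 15.70 in ARID1A cells and 14.84, 15.26 and 15.18 in DMSO cells, in the order of replicates 1, 2 and 3. Every ARID1A array stood above every DMSO array. The mean was 15.60 ± 0.16 in ARID1A cells and 15.09 ± 0.22 in DMSO cells (SD, n = 3 each), a difference of 0.50 (SE 0.17, interval 0.12 to 0.89, limma adjusted p = 0.193). Within batches 1, 2 and 3 the difference was 0.57, 0.41 and 0.52, closer together than the arrays of either group. With batch as a block the SE was 0.09 and the limma adjusted p 0.0411. With the block and any 1 batch left out, the difference was 0.47 to 0.54 and the limma adjusted p 0.171 to 0.221. Those smaller fits called 0 probes of any gene, so the loss of the call was not particular to CDKN1A. On this probe raw intensities ran between 29009 and 51963, and only 308 to 649 probes of an array ranked at or above it. The other CDKN1A probe, ILMN_1787212, was not above background on any array.

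**Figure D1:**
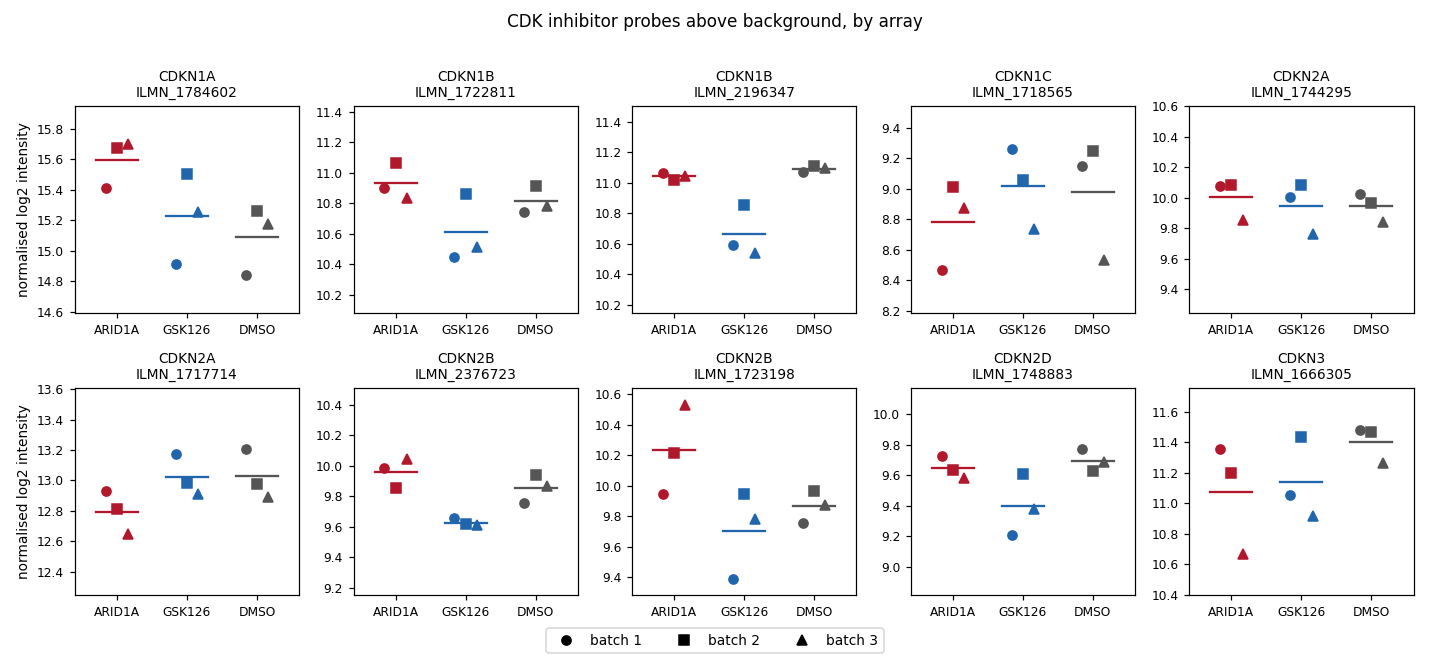
Normalised log2 intensity (vertical axis, its own range in each panel of equal height) of the 10 CDK inhibitor probes above background on the 9 arrays. Symbols mark batches 1 to 3 and bars the group means. In the CDKN1A panel the 3 ARID1A arrays, at 15.41 to 15.70, lie above the 3 DMSO arrays, and in the panel of CDKN1B probe ILMN_2196347 the 3 GSK126 arrays lie below all others.

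The INK4 locus on chromosome 9 was read by 4 probes above background. CDKN2B encodes p15, an inhibitor of CDK4 and CDK6 known to be induced by TGF-beta. Its probe ILMN_1723198 had 9.95, 10.22 and 10.53 in ARID1A cells and 9.76, 9.97 and 9.87 in DMSO cells. The ARID1A arrays of batches 2 and 3 stood above every DMSO array, and that of batch 1 within their range. The difference was 0.37 (SE 0.18, interval −0.04 to 0.77, limma adjusted p = 0.350; 0.169 with the block), and 0.19, 0.25 and 0.66 within the batches. Without ARID1A replicate 3 it was 0.22. The second CDKN2B probe, ILMN_2376723, differed by 0.11 (SE 0.09, limma adjusted p = 0.595), with overlapping groups.

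CDKN2A encodes 2 unrelated proteins, the CDK4/6 inhibitor p16 and ARF, a tumour suppressor read in another frame. The probe listed with the p16 transcript, ILMN_1717714, had 12.93, 12.81 and 12.65 in ARID1A cells and 13.21, 12.98 and 12.89 in DMSO cells. In each batch the ARID1A array was the lower one, by 0.27, 0.17 and 0.25, although the groups overlapped. The difference was −0.23 (SE 0.12, interval −0.51 to 0.04, limma adjusted p = 0.388; 0.147 with the block). The probe listed with the ARF transcript, ILMN_1744295, had 10.08, 10.08 and 9.85 in ARID1A cells and 10.03, 9.96 and 9.84 in DMSO cells, a difference of 0.06 (SE 0.12, limma adjusted p = 0.836).

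Both CDKN2A probes are named here by the transcript listed for them. Probe sequences were not used, so whether each reads that transcript alone was not tested. On each array the value of the p16 probe minus that of the ARF probe tells whether the signals of both probes moved alike, a comparison chosen after the values were seen. It was 2.85, 2.73 and 2.79 in ARID1A cells and 3.18, 3.01 and 3.05 in DMSO cells. Every ARID1A array was lower than every DMSO array. The difference of −0.29 had a p of 0.1 in a two-sided exact permutation test, the smallest that 3 arrays against 3 allow. Groups that do not overlap always give that p, so it adds nothing to the values, and the test did not take batch into account. For GSK126 the same quantity was 3.17, 2.90 and 3.15, differing from DMSO by −0.01 (exact permutation p = 0.8) and from ARID1A by 0.28 (exact permutation p = 0.1).

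The remaining members gave no called difference after ARID1A induction. CDKN1B (p27), CDKN1C (p57) and CDKN2D (p19), read by 4 probes, had differences between −0.19 and 0.12, with limma adjusted p between 0.683 and 0.876. One of them, CDKN1B probe ILMN_2196347, had groups that did not overlap, at 11.06, 11.02 and 11.04 in ARID1A cells and 11.07, 11.11 and 11.10 in DMSO cells, but they were only 0.05 apart (SE 0.10). CDKN1C, the imprinted member, had 8.47, 9.01 and 8.88 in ARID1A cells and 9.15, 9.25 and 8.53 in DMSO cells. Its arrays spread more than those of any other member in DMSO cells, and its interval, −0.69 to 0.31, leaves room for a change in either direction. CDKN3, the CDK phosphatase, had 11.36, 11.20 and 10.67 in ARID1A cells and 11.48, 11.47 and 11.26 in DMSO cells. The difference of −0.33 (SE 0.19, limma adjusted p = 0.432; 0.228 with the block) was negative in 3 of 3 batches, and the groups overlapped. Without ARID1A replicate 3 it was −0.13.

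GSK126 gave no called CDK inhibitor probe against DMSO, and no called probe of any gene (0% of 23014 in limma, 0% with the block). The largest member difference under the drug was that of CDKN1B probe ILMN_2196347, 0.743 times the DMSO level on the linear scale. Of the 10 differences, 3 were positive and 7 negative, with a median of −0.18 against −0.00 over all probes. Unadjusted p was below 0.05 for 3 of 10 members (9.34% of all probes) and for 4 with the block (12.8% of all probes). For 3 of 10 the groups did not overlap (15.2% of all probes).

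CDKN1B encodes p27, which restrains cyclin E-CDK2 and is removed by the ubiquitin ligase SKP2. Its probe ILMN_2196347 had 10.59, 10.86 and 10.54 in GSK126 cells and 11.07, 11.11 and 11.10 in DMSO cells. All GSK126 arrays were lower than all DMSO arrays, whose SD was 0.02. The mean was 10.66 ± 0.17 in GSK126 cells and 11.09 ± 0.02 in DMSO cells (SD, n = 3 each), a difference of −0.43 (SE 0.10, interval −0.65 to −0.20, unadjusted p = 0.00184, limma adjusted p = 0.297; 0.206 with the block). Within the batches the difference was −0.47, −0.25 and −0.56. The second CDKN1B probe, ILMN_1722811, had 10.45, 10.86 and 10.51 in GSK126 cells and 10.74, 10.91 and 10.78 in DMSO cells. Here the groups overlapped, and the difference of −0.20 (SE 0.13, limma adjusted p = 0.659) was the smaller of the pair.

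CDKN2D, the INK4 member p19, had 9.21, 9.61 and 9.38 in GSK126 cells and 9.77, 9.63 and 9.69 in DMSO cells. The groups did not overlap, but in batch 2 they were 0.02 apart. The difference was −0.30 (SE 0.11, limma adjusted p = 0.477), and −0.16 without batch 1. CDKN2B probe ILMN_2376723 had 9.65, 9.62 and 9.61 in GSK126 cells, below the 9.75, 9.94 and 9.86 of DMSO cells, a difference of −0.22 (SE 0.09, limma adjusted p = 0.500). The other CDKN2B probe differed by −0.16 (SE 0.18, limma adjusted p = 0.821), with overlapping groups, and by −0.0024 without GSK126 replicate 1.

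CDKN2A, the member best known as a Polycomb target, had 13.17, 12.98 and 12.91 at the p16 probe in GSK126 cells, against 13.21, 12.98 and 12.89 in DMSO cells. The difference was −0.00 (SE 0.12, interval −0.28 to 0.27), and that of the ARF probe 0.01 (SE 0.12, interval −0.26 to 0.27). CDKN1C, also known as a Polycomb target, had 9.26, 9.06 and 8.74 in GSK126 cells and the DMSO values given above. Its difference was 0.04 (SE 0.22), with an interval of −0.46 to 0.54. CDKN1A had 14.92, 15.51 and 15.26 in GSK126 cells, a difference from DMSO of 0.13 (SE 0.17, interval −0.25 to 0.52, limma adjusted p = 0.852). CDKN3 had 11.06, 11.43 and 10.92 and differed by −0.27 (SE 0.19, limma adjusted p = 0.712).

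In the GSK126 and DMSO groups the arrays did not take turns evenly over the 10 member probes. ARID1A replicates 1, 2 and 3 were more even, with the highest value of their group in 4, 3 and 3 and the lowest in 3, 2 and 5. The same counts were not made over all probes, so these are not read as particular to the members. GSK126 replicate 2 had the highest value of its group in 7 and the lowest in 0, and GSK126 replicate 3 the highest in 0 and the lowest in 6. DMSO replicate 2, of the same batch as GSK126 replicate 2, had the highest value in 6 and the lowest in 1. DMSO replicate 1 had the highest in 4 and the lowest in 5, and DMSO replicate 3 the highest in 0 and the lowest in 4. Without GSK126 replicate 2 the difference of CDKN1B probe ILMN_2196347 from DMSO was −0.52, and that of CDKN1A −0.01. Apart from the block and the fits that left out batch 2, the part of that batch in these results was not tested.

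**Figure D2:**
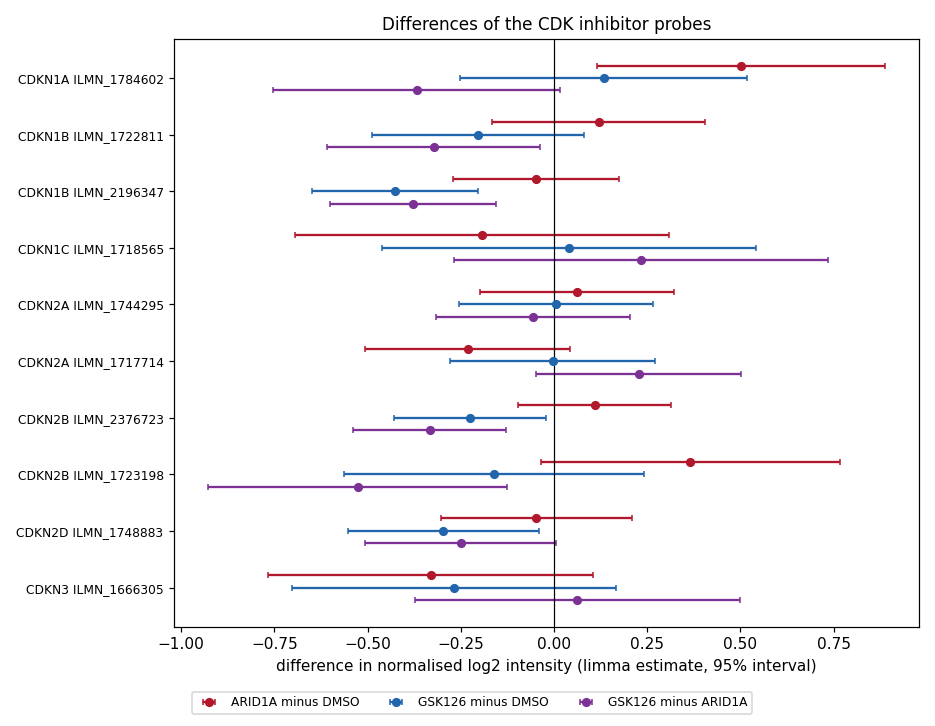
Differences in normalised log2 intensity (horizontal axis) of the 10 CDK inhibitor probes in the 3 comparisons, as limma estimates (points) with 95% intervals (bars). For ARID1A minus DMSO the interval of CDKN1A alone, 0.12 to 0.89, lies off 0, and for GSK126 minus DMSO those of CDKN1B probe ILMN_2196347, CDKN2B probe ILMN_2376723 and CDKN2D do.

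Set directly against each other, GSK126 and ARID1A cells differed at none of the 10 member probes in the limma test, while 295 probes of all genes were called (1.28%; 2.27% with the block, which called 0 members). Of the members, 7 differences were negative and 3 positive, with a median of −0.29 against 0.00 over all probes. Unadjusted p was below 0.05 for 4 of 10 (15.2% of all probes) and for 6 with the block (19.1% of all probes), and the groups did not overlap for 3 of 10 (20.2% of all probes). Those 3 were 1 CDKN1B probe and both CDKN2B probes.

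CDKN2B probe ILMN_1723198 had 9.39, 9.95 and 9.78 in GSK126 cells, against 9.95, 10.22 and 10.53 in ARID1A cells. The difference was −0.53 (SE 0.18, limma adjusted p = 0.198; 0.0835 with the block), and −0.56, −0.27 and −0.75 within the batches. Probe ILMN_2376723 of the same gene differed by −0.33 (SE 0.09, limma adjusted p = 0.119), its 3 GSK126 arrays all lying below the 9.99, 9.85 and 10.05 of ARID1A cells. At both probes every GSK126 array was below every ARID1A array, although GSK126 replicate 2 and ARID1A replicate 1 both read 9.95 at the first.

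CDKN1B probe ILMN_2196347 had 10.59, 10.86 and 10.54 in GSK126 cells, all below the ARID1A arrays. The difference was −0.38 (SE 0.10, limma adjusted p = 0.109; 0.0962 with the block). CDKN1A differed by −0.37 (SE 0.17, limma adjusted p = 0.351; 0.0902 with the block), and −0.50, −0.17 and −0.44 within the batches. Its groups overlapped through GSK126 replicate 2. At the p16 probe of CDKN2A the GSK126 value was higher by 0.23 (SE 0.12, limma adjusted p = 0.428), and CDKN2D was lower by 0.25 (SE 0.11, limma adjusted p = 0.341).

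**Figure D3:**
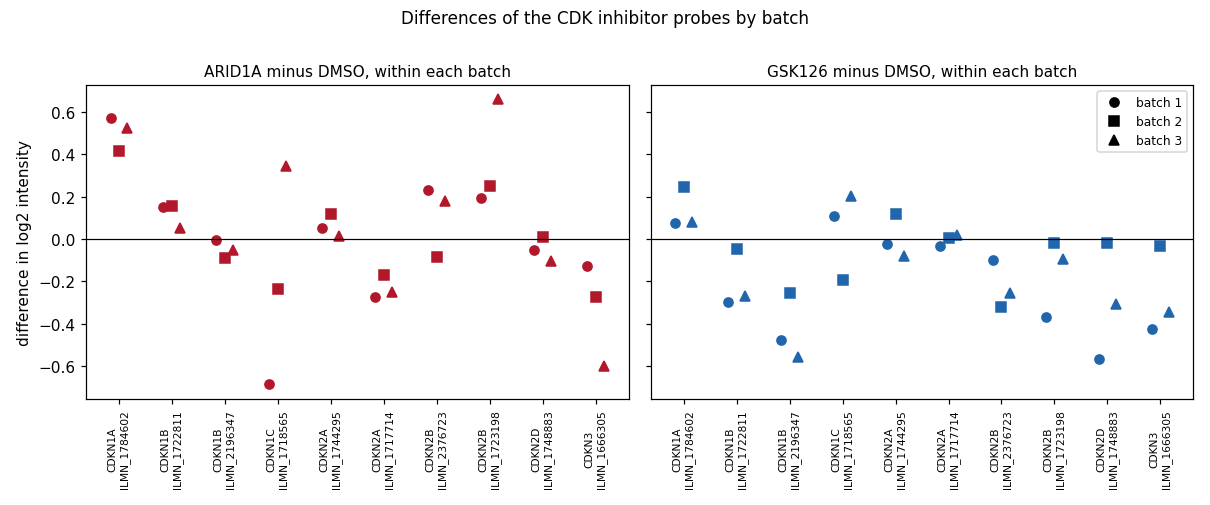
Difference in log2 intensity (vertical axis) of each CDK inhibitor probe between the ARID1A array (left) or the GSK126 array (right) and the DMSO array of the same batch. Symbols mark batches 1 to 3. CDKN1A lies at 0.41 to 0.57 in all 3 batches after ARID1A induction, and CDKN1B probe ILMN_2196347 at −0.56 to −0.25 under GSK126.

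Over the 9 arrays the brightest probes of CDKN1A and CDKN2B varied together, with a Pearson correlation of 0.855, and each ran opposite to the p16 probe of CDKN2A, at −0.882 and −0.877. CDKN1B went with CDKN2D, at 0.888. These describe 9 points that share 3 groups and 3 batches, so no p is given. The probes of other genes were also searched by the same measure, and the 3 highest genes of each member follow. Over only 9 arrays, the highest of so many correlations are large whether or not genes are related. They describe the arrays and do not show shared regulation. The genes most like CDKN1A were CHIC2 (0.978), ZNF436 (0.971) and ATP6V0A1 (0.969). CDKN3 was most like PLK4, the kinase that starts centriole duplication (0.964), PRPS2 (0.964) and SH3BP1 (0.953). Most like CDKN2A at its p16 probe were MRPL16 (0.971), CCN2 (0.971) and TNFAIP3 (0.960), and most like CDKN2B were CEP70 (0.960), TEX9 (0.958) and SEC61A2 (0.947). CDKN1B was most like SNORD13 (0.954), UVSSA (0.944) and TOE1 (0.941). CDKN2D was most like ASAP1-IT1 (0.951), LMNA (0.937) and SCG2 (0.936), and CDKN1C most like SLC68A1 (0.936), TAOK3 (0.928) and TCEANC2 (0.925).

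The genes around the inhibitors were read from 9 lists, 1 probe a gene, among 12698 genes tested. They held 86 tested genes. After ARID1A induction none of these passed the limma test (2.84% of all genes did), and 8 had an unadjusted p below 0.05 (19.2% of all genes). With the block MYC passed as lower (6.1% of all genes were called). For GSK126 against DMSO 0 passed in limma with or without the block (0% and 0% of all genes), and 8 had an unadjusted p below 0.05 (9.33% of all genes). For GSK126 against ARID1A 0 passed (2.5% of all genes did), 12 had an unadjusted p below 0.05 (16.5% of all genes), and with the block MYC passed as higher (4.17% of all genes were called).

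Kinases, cyclins and E2F genes had list medians below 0 after ARID1A induction, with none of their members called. The medians were −0.10 for the 4 CDKs, −0.12 for 8 of 9 cyclins (all 8 negative), −0.16 for 13 pocket proteins, E2F and DP factors (12 negative) and −0.15 for 13 of 15 E2F target genes (all 13 negative), against −0.00 over all genes. CDK1, the mitotic kinase, differed by −0.23 (SE 0.15, limma adjusted p = 0.457) and CDK6 by −0.16 (SE 0.14). Of the cyclins, CCND3, a partner of CDK4 and CDK6, differed by −0.13 (SE 0.09), and CCNA1 was not above background on any ARID1A array. MCM6, part of the replicative helicase, differed by −0.41 (SE 0.14, limma adjusted p = 0.163), its fellow subunit MCM2 by −0.25 (SE 0.13), TFDP1, the DNA-binding partner of E2F, by −0.29 (SE 0.11, limma adjusted p = 0.196) and the repressor E2F7 by −0.45 (SE 0.18, limma adjusted p = 0.22).

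Under GSK126 all 13 E2F target genes were again negative, with a median of −0.22, measured against the same DMSO arrays. The 4 CDKs had a median of −0.13, the cyclins −0.02 and the pocket protein and E2F list −0.11. In that last list 10 members were negative and 3 positive. E2F7 differed by −0.65 (SE 0.18, limma adjusted p = 0.377) and E2F2 by −0.34 (SE 0.13). E2F1 went the other way, by 0.51 (SE 0.21, limma adjusted p = 0.522), with groups that did not overlap. CDC45, a component of the replicative helicase, had 11.29, 11.61 and 11.49 in GSK126 cells and 11.95, 12.01 and 11.99 in DMSO cells. Its groups did not overlap. The difference was −0.52 (SE 0.14, limma adjusted p = 0.377), and RRM2, of ribonucleotide reductase, differed by −0.31 (SE 0.14). CDK2 differed by −0.21 (SE 0.12), CDK1 by −0.21 (SE 0.15), CCND2 by 0.16 (SE 0.09) and CCNA2 by −0.29 (SE 0.22). Between GSK126 and ARID1A cells the medians of these 4 lists were −0.01 for the CDKs, 0.12 for the cyclins, 0.03 for the E2F factors and −0.01 for the E2F targets.

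Among transcription factors reported at CDKN1A, 12 of 15 were tested. MYC, known to repress CDKN1A and CDKN2B together with its partner ZBTB17, had 13.77, 13.83 and 13.27 in ARID1A cells and 14.41, 14.35 and 14.16 in DMSO cells. The groups did not overlap. The difference of −0.68 (SE 0.18) missed the threshold (limma adjusted p = 0.0865) and passed with the block (0.0284). Without the block it also passed with no background correction (0.0282) or with the authors' value table (0.0270). In GSK126 cells MYC had 14.65, 14.14 and 14.12, a difference from ARID1A cells of 0.68 (SE 0.18, limma adjusted p = 0.0959; 0.0338 with the block). FOXO4, of a family that activates CDKN1A and CDKN1B, differed by 0.40 after ARID1A induction (SE 0.15, limma adjusted p = 0.185). Under GSK126 SMAD4, the shared TGF-beta mediator, differed by −0.22 (SE 0.09) and SP3 by −0.23 (SE 0.11). The list's median was −0.01 for ARID1A and −0.04 for GSK126 against DMSO, and −0.09 for GSK126 against ARID1A.

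Transcripts for the proteins that remove the inhibitors had a list median near 0 in each comparison, with members on both sides. The 11 ubiquitin ligase genes for p21, p27 and p57 had medians of −0.02 for ARID1A and −0.01 for GSK126 against DMSO, and −0.01 for GSK126 against ARID1A. DDB1, an adaptor in the ligase for p21, differed by 0.20 after ARID1A induction (SE 0.08, limma adjusted p = 0.238) and CKS1B, a cofactor of SKP2, by −0.21 (SE 0.11). SKP2 differed by −0.26 under GSK126 (SE 0.12, limma adjusted p = 0.539) and CDC20 by −0.29 (SE 0.16). The 8 CDK-activating and inactivating enzymes had medians of −0.04, −0.11 and −0.02 in the 3 comparisons. For GSK126 against DMSO 7 of these 8 were negative and 1 positive. Under GSK126 MNAT1, of the CDK-activating kinase, differed by 0.33 (SE 0.12, limma adjusted p = 0.466) and PKMYT1, which inactivates CDK1, by −0.34 (SE 0.22, limma adjusted p = 0.673).

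For the INK4 locus, 10 of 12 regulators and 7 of 11 genomic neighbours of CDKN2A, CDKN2B and CDKN1C were tested. BMI1, the Polycomb protein that silences INK4A and ARF, had 11.78, 11.97 and 11.80 in ARID1A cells and 12.19, 12.02 and 12.37 in DMSO cells. Its groups did not overlap, and the difference was −0.34 (SE 0.11, limma adjusted p = 0.120; 0.107 with the block). EZH2 at its brightest probe differed by −0.17 (SE 0.15) after ARID1A induction and by −0.28 (SE 0.15) under GSK126. EZH2 probe ILMN_1652913 averaged 9.49 in ARID1A, 9.68 in GSK126 and 9.98 in DMSO cells (ARID1A against DMSO, limma adjusted p = 0.2535). EZH2 probe ILMN_2364529 averaged 9.93, 9.95 and 10.21 in the same order (limma adjusted p = 0.381). CBX7 differed by −0.28 (SE 0.16) under GSK126. MTAP, the next gene beyond CDKN2A, differed by −0.30 after ARID1A induction (SE 0.14, limma adjusted p = 0.284) and PHLDA2, near CDKN1C, by −0.26 (SE 0.12). The list medians were −0.00 and −0.07 for ARID1A, and −0.07 and −0.07 for GSK126, against DMSO.

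DMRTA1, a DM-domain gene on the other side of CDKN2B, had 8.69, 8.83 and 8.88 in GSK126 cells and 7.64, 8.29 and 8.33 in DMSO cells. Every GSK126 array was above every DMSO array, and the difference was 0.71 (SE 0.19, limma adjusted p = 0.373). Against the ARID1A arrays, at 8.07, 7.73 and 8.24, the difference was 0.79 (SE 0.19, limma adjusted p = 0.0756; 0.0526 with the block). It passed without background correction, where it was 0.45 (limma adjusted p = 0.0296). The CDKN2A and CDKN2B probes beside it had GSK126 differences from DMSO between −0.22 and 0.01. KCNQ1OT1, the long RNA that silences CDKN1C on the paternal chromosome, differed by −0.31 under GSK126 (SE 0.16, limma adjusted p = 0.585).

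**Figure D4:**
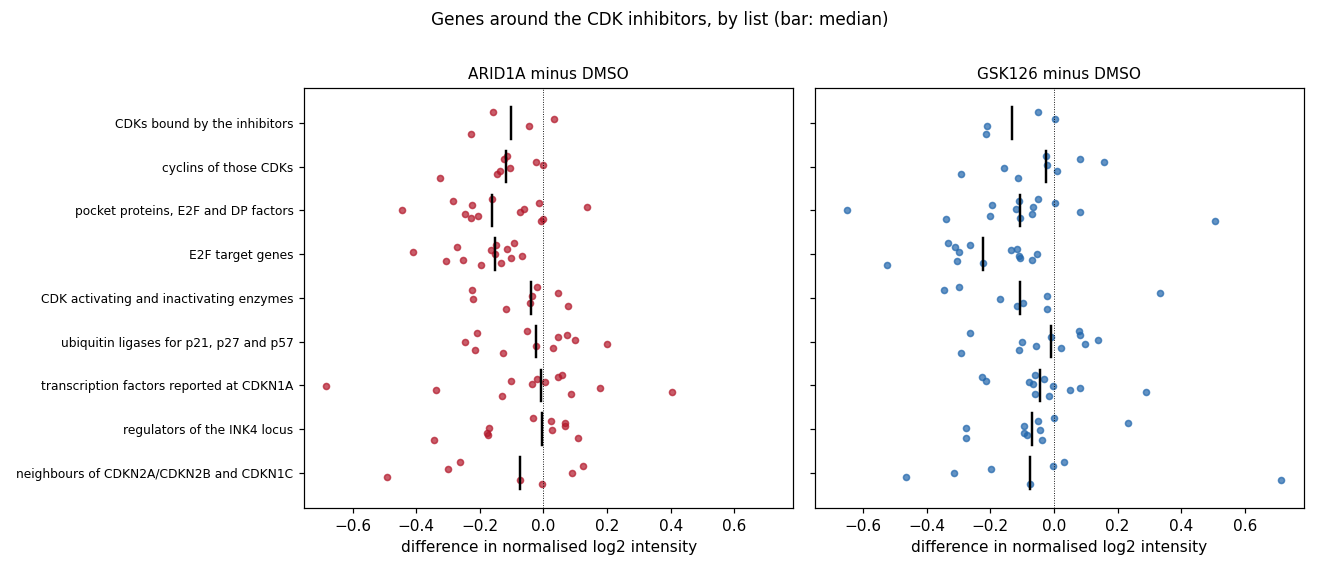
Differences in normalised log2 intensity (horizontal axis) of the tested genes of 9 lists around the CDK inhibitors, for ARID1A minus DMSO (left) and GSK126 minus DMSO (right). Each point is a gene and each bar a list's median. All 13 E2F target genes lie below 0 in both panels, which share the DMSO arrays, and DMRTA1 at 0.71 is the point farthest to the right under GSK126.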

How the data were processed

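RNA of 9 OVISE samples was hybridised to an Illumina expression array. The deposited table holds linear intensity values and a detection p-value per probe, made by the authors' software, which the submitters' processing notes name as GenomeStudio. The authors' value table holds linear intensity values whose columns share 1 set of quantiles; it was used as an alternative. Further upstream steps and the array's build are not given in the sources used here.

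Intensities went through limma's neqc (limma 3.58.1, R 4.3.3), that is normexp background correction with negative controls inferred from detection p-values, an offset of 16, quantile normalisation and log2. A probe was kept if detected (p below 0.05) on 3 or more of the 9 arrays, which left 23014 of 47323 (48.63%). The platform annotation gave 30113 probes 1 gene symbol, 8 several and 17202 none, and 30074 symbols were updated to RefSeq names of GRCh38.p14 through Entrez identifiers. Probes without exactly 1 symbol were tested but not named. One model of 3 group means was fitted to all 9 arrays by lmFit and eBayes, with 6 residual degrees of freedom, two-sided, with Benjamini-Hochberg adjustment at 0.05 over all kept probes. Gene lists used the brightest kept probe of each of 12698 genes. Only 3 arrays a group limit the precision.

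The labels tie replicate numbers to batches 1 to 3. Deviations from group means correlated at 0.07 to 0.25 between 9 pairs of arrays of 1 batch and at −0.17 to 0.03 between 18 pairs of different batches. A fit that adds batch as a block leaves 4 residual degrees of freedom. Its adjusted p is given where it changed the call of a member or list gene, and for some genes where it did not. The script was tested on simulated intensities of the ARID1A comparison with 23014 probes: 68 of 100 probes changed by 1 on the log2 scale and 99 of 100 changed by 2 were recovered, with 7 false calls. The simulated arrays had no batch effect. Differences as small as those of the CDK inhibitors were not simulated, so their recovery is not known from it.

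Named were all member probes, ARID1A, EZH2 and the 3 genes correlated best with each member. The rule for each list was up to 2 called genes a direction or else the 2 with the smallest p. It was not carried through in every comparison, and some further genes are named. For GSK126 against ARID1A few list genes are named. For ARID1A against DMSO no CDK-activating or inactivating enzyme is named. The members, lists and tests were chosen with earlier results of these data known. Background, normalisation, probe filter, weights, samples and block were varied; 4 combinations with the block were added after seeing the data. No set test was run. One further gene list is not reported here.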

Additional observations from a re-analysis of the deposited data

How the results depend on the processing

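No CDK inhibitor probe was called at the chosen setting in any of the 3 comparisons, and counts over all probes moved with the setting. For ARID1A against DMSO, 332 probes became 722 without background correction, 737 with the authors' value table, 178 without the probe filter, 191 with only the 2 groups in the model, 627 with the replicate block, 1763 with the block and the authors' value table, 1686 with the block and no background correction and 774 genes with the block and 1 probe a gene. The count of CDK inhibitors called was 1 (CDKN1A) in the 4 settings with the block and all batches, and 0 in the other settings. For GSK126 against DMSO, 0 probes (smallest limma adjusted p = 0.156; 2149 at an unadjusted p below 0.05) became 1 without background correction, 1 with the authors' value table, 55 with the block and that table and 39 with the block and no background correction, with 0 CDK inhibitors throughout. For GSK126 against ARID1A, 295 probes became 712, 731, 144, 113, 523, 1494, 1468 and 530 in the order of settings given first. CDK inhibitors called there were 1 without background correction or with the authors' value table (CDKN1B probe ILMN_2196347, limma adjusted p = 0.0498 and 0.0496), and 4 when either was combined with the block (CDKN1A, both CDKN1B probes and CDKN2B probe ILMN_1723198). Leaving out 1 array or 1 batch without the block gave 0 to 286 probes for ARID1A against DMSO and 0 for GSK126 against DMSO. For GSK126 against ARID1A it gave 0 to 179. With the block and 1 batch left out, 0 probes of any gene were called in each comparison. No CDK inhibitor was called in any of these fits. Fewer arrays were then fitted.

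The CDKN1A difference for ARID1A against DMSO lay between 0.38 (without DMSO replicate 1) and 0.60 (without ARID1A replicate 1). Differences that changed sign were not called on either side: with median scaling, the p16 probe of CDKN2A was at 0.053 for GSK126 against DMSO; with 1 array or batch left out, it ran between −0.078 and 0.086, CDKN1A between −0.0061 and 0.29, CDKN1C between −0.18 and 0.18 and the ARF probe of CDKN2A between −0.061 and 0.10. CDKN1C for ARID1A against DMSO ran between −0.46 and 0.052. For GSK126 against ARID1A, CDKN3 ran between −0.14 and 0.25, the ARF probe between −0.13 and 0.037 and CDKN1C between −0.047 and 0.42. The cause was not tested.

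Of the gene lists, MYC was called with the block, with no background correction and with the authors' value table, as lower for ARID1A against DMSO and higher for GSK126 against ARID1A. For GSK126 against ARID1A DMRTA1 was called without background correction, with the authors' value table (0.45 in each), with median scaling (0.84) and without DMSO replicate 1 (0.79). The block combined with either no background correction or the authors' value table also called BMI1, E2F7, MCM6, MTAP and TFDP1 as lower for ARID1A against DMSO, E2F7 as lower for GSK126 against DMSO and MNAT1 as higher for GSK126 against ARID1A.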
